A study of Danio rerio with 14 samples.

Results

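The transcripts described here are 48 probe sets of the zebrafish pineal gland whose fitted signal peaked in the middle or late night. The pineal gland of fish is a photoreceptive clock organ: its photoreceptor cells hold a circadian clock and make melatonin during the dark hours. The best known night transcript of the gland is aanat2, the enzyme that sets the rhythm of melatonin. The genes described below lie outside melatonin synthesis and serve growth factor signalling, transcription, metabolism, transport, adhesion and cell division.

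Members were chosen by their own time courses on these arrays. Values are MAS5 signals, the brightness of a set of probes for a transcript on a linear scale. A wave of 24 h was fitted to log2(signal + 15) of each probe set, with the light condition as a term. A probe set was kept where the wave spanned at least 0.8 on the log2 scale between trough and peak (the size of the wave), explained at least 60% of the variance left after the condition (its share), and peaked from ZT16 to before ZT22. ZT, zeitgeber time, counts hours from lights on. Of 9195 probe sets with a mean signal above 30, 53 met these limits. Of these, 5 were then left out by symbol, namely klf9, dusp6, guca1aa, gngt2a and gnai2b. The 48 members held 37 probe sets with a symbol, for 36 genes, and 11 with none. The same size and share at any peak time were met by 406 probe sets, so night peaks made up a small part: 154 peaked from ZT22 to ZT4, 62 from ZT4 to ZT10 and 137 from ZT10 to ZT16.

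Glands came from adult zebrafish of both sexes, 3 to 6 months old, all carrying the transgene Tg(aanat2:EGFP)Y8, in which aanat2 sequences drive a green fluorescent protein that marks the gland for dissection. All fish had been raised at 28 °C in 12 h of light and 12 h of darkness. During the cycle of collection they stayed in that cycle (LD, 7 arrays) or were moved to constant darkness (DD, 7 arrays). An array measured RNA from a pool of 12 glands, collected at ZT2, ZT6, ZT10, ZT14, ZT18 or ZT22, with a further collection named ZT2b in each condition, left unexplained in the labels and treated here as ZT2. No other time was sampled again within a condition, so each error and p-value rests on how far pools scattered about a fitted model, which may be technical. A batch that separated the LD from the DD arrays cannot be told apart from light.

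Median signals over probe sets averaged 44.8 ± 2.6 on the 7 LD arrays and 46.4 ± 2.3 on the 7 DD arrays (SD). The DD array of ZT10 stood apart. The poly-A control transcripts added before amplification had a geometric mean signal of 1713 on it, against 100.5 to 268.5 on the other 13 arrays, and its ratio of 3' to 5' GAPDH signal was 16.7, against 5.09 to 12.9. Its mean correlation with the other arrays of its condition, across probe sets, was 0.938, against 0.956 to 0.965 for the others. ZT10 lies in the trough of many members, and this array was the lowest DD array for 17 of 48. Without it, the same rule kept 66 probe sets, and 43 of the 48 members were among them. The 5 that were not are f11r.1, hes6, arrdc2, si:ch211-79k12.1 and si:dkey-286j15.3. Of 16 listed pineal photoreceptor markers, 12 had a probe set above the mean signal limit. Their summed signal was 45344 to 67543 on the LD arrays and 43789 to 57141 on the DD arrays. The largest means in this sum were 16556 for rbp4l and 11723 for exorh, and it holds genes that change with time, such as aanat2. It does not show that each marker was present on every array, and gngt2b fell to 15.5 in LD.

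**Figure D1:**
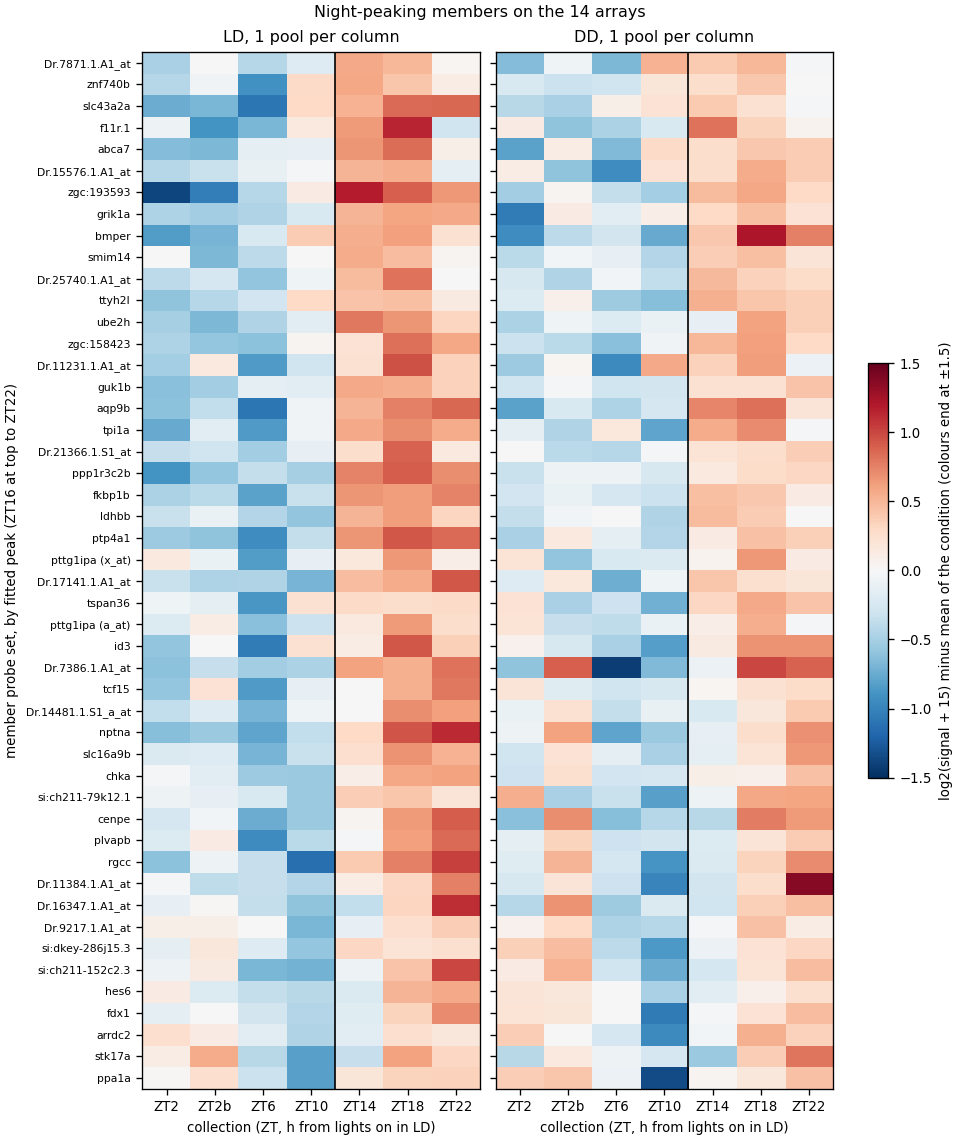
Heat map of the 48 members (rows, by fitted peak from ZT16 at the top to ZT22) on the 7 LD arrays (left) and the 7 DD arrays (right), as log2(signal + 15) minus the mean of the condition, with a line between day and night collections. Warm colours fill most cells at ZT18 and ZT22 in both conditions, and the darkest cold cells lie at ZT2, ZT6 and ZT10.

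The fitted peaks were spread over the window rather than gathered at a single hour. They fell in ZT16 to ZT18 for 22 members, in ZT18 to ZT20 for 13 and in ZT20 to ZT22 for 13. Sizes ran from 0.81 to 1.86 with a median of 1.13, against a median of 0.34 over all probe sets tested. The share of variance ran from 60.7% to 91.3% with a median of 69.8%. These values chose the members and are given as a description, with no test.

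The order of single arrays showed the same window. All 3 night arrays (ZT14, ZT18 and ZT22) lay above all 4 day arrays in LD for 31 of 48 members, where 6.53% of all probe sets did so. In DD this held for 17 of 48 members, where 3.13% of all probe sets did so. It held in both conditions for 13 members, where 0.5% of all probe sets did so. The rule used the same time courses, so these counts describe the choice of members. The highest LD array was that of ZT18 for 21 members, of ZT22 for 19, of ZT14 for 7 and of ZT2 for 1. The highest DD array was that of ZT18 for 20 members, of ZT22 for 17, of ZT14 for 7, of ZT2b for 3 and of ZT10 for 1.

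The collections at ZT2 and ZT2b show how far pools at one nominal time differed. The absolute difference of log2 values between them had a median over members of 0.20 in LD and 0.41 in DD. Over all probe sets tested these medians were 0.22 and 0.23. The widest gap of a member was 0.82 in LD and 1.50 in DD. The 1.50 belonged to a probe set with no symbol, which also had the largest size of all members, 1.86 ± 0.40 (SE, as for every size below). Its signal was 248.0, 301.4, 265.5, 273.7, 595.4, 564.1 and 692.9 in LD at ZT2, ZT2b, ZT6, ZT10, ZT14, ZT18 and ZT22, against 154.1, 463.8, 81.9, 147.8, 226.7, 503.1 and 459.3 in DD. Night lay above day in LD, and in DD the ZT2b pool reached the night level.

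Several members lay close to a limit. The sizes nearest to 0.8 inside were 0.81 for hes6 and 0.83 for a probe set with no symbol, and outside 0.79 for cnn3b and 0.78 for ip6k2b. The shares nearest to 60% inside were 60.7% for tcf15 and 61.9% for tspan36, and outside 59.96% for a probe set with no symbol and 58.6% for her4.2. The earliest members peaked at ZT16.0 (a probe set with no symbol) and ZT16.1 (znf740b), and just outside were ZT15.7 (no symbol) and ZT15.7 (clic1). The latest peaked at ZT21.6 (ppa1a) and ZT21.5 (stk17a), and just outside were ZT22.0 (cxcl14) and ZT22.1 (thraa). At the signal limit, aqp9b with a mean of 30.2 and znf740b with 32.2 were inside, and cldn1 with 29.6 and pgm3 with 28.4 outside. The 2 melatonin genes that the rule names were outside on the 14 arrays also by their values, since the wave explained 58.3% of the variance of aanat2 and 53.9% and 48.6% for the 2 probe sets of tph1a, the first enzyme of the pathway. Without the DD array of ZT10, aanat2 met every limit, with a share of 61.9%, a size of 1.93 and a peak at ZT18.2, and tph1a had shares of 50.3% and 54.5%. Membership also rested on single arrays: 24 of 48 members met every limit whichever array was left out. Without the DD array of ZT6 the rule kept 88 probe sets, 45 of the 48 members among them.

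The signalling members were bmper, rgcc, ptp4a1, fkbp1b, stk17a and arrdc2, with sizes of 0.96 to 1.58 and peaks from ZT16.9 to ZT21.5. Bmper encodes a secreted protein that binds bone morphogenetic proteins (BMPs) outside the cell. In the order ZT2, ZT2b, ZT6, ZT10, ZT14, ZT18 and ZT22, its signal was 587.1, 648.9, 903.4, 1384, 1548, 1635 and 1244 in LD, against 282.4, 418.1, 455.4, 321.0, 736.8, 1304 and 946.1 in DD. The LD values climbed through the light hours, whereas in DD all day values lay below all night values. The fitted peak was ZT15.1 in LD and ZT18.2 in DD.

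Rgcc encodes a regulator of the cell cycle that binds cyclin-dependent kinase. Over the same collections its signal was 198.1, 295.1, 241.3, 133.9, 415.2, 534.3 and 648.7 in LD, against 242.3, 402.2, 227.9, 143.5, 236.1, 352.4 and 464.6 in DD. ZT10 was the lowest and ZT22 the highest collection in both conditions. In LD the night values all exceeded the day values, and in DD the ZT2b value was above those of ZT14 and ZT18. The size was 1.58 ± 0.33.

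Ptp4a1 encodes a phosphatase of the PRL family. Its signal was 959.3, 921.8, 731.7, 1097, 2246, 2714 and 2553 in LD, against 925.5, 1446, 1182, 958.1, 1417, 1776 and 1671 in DD. The night level was higher in LD than in DD at all 3 night collections, and the day levels overlapped. Its fitted size was 2.10 in LD and 0.81 in DD. Fkbp1b, an immunophilin that binds ryanodine receptor calcium channels, had 2069 to 2243 at night and 757.9 to 1053 by day in LD, against 1486 to 1870 at night and 1085 to 1269 by day in DD, without overlap of night and day in either condition. Stk17a, a serine/threonine kinase linked to cell death in mammals, and arrdc2, an arrestin domain protein, peaked last of this group, at ZT21.5 and ZT21.4.

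**Figure D2:**
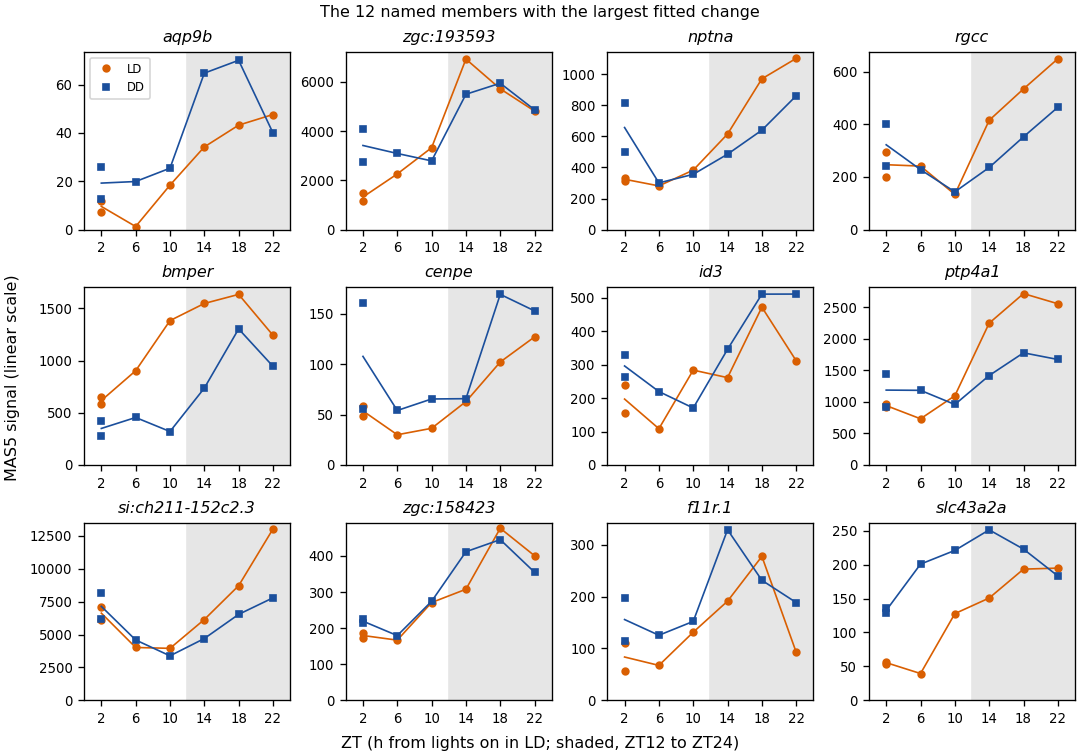
MAS5 signal (linear axis from 0) against ZT for the 12 named members with the largest size, with circles for LD and squares for DD, 1 pool per point, both ZT2 collections drawn at ZT2 and lines through the mean of these 2. In LD, every night point lies above every day point for all but bmper, id3, si:ch211-152c2.3 and f11r.1. In DD, nptna, rgcc, cenpe, si:ch211-152c2.3 and, by little, ptp4a1 have a ZT2b point above the ZT14 point.

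The transcription regulators were id3, tcf15, hes6 and znf740b, with sizes of 0.81 to 1.45. Id3 encodes an inhibitor of basic helix-loop-helix factors and is a known target gene of BMP signalling. Its signal was 154.6, 239.1, 108.4, 283.3, 260.9, 471.2 and 311.1 in LD, against 328.3, 263.1, 219.3, 170.2, 345.5, 510.2 and 510.4 in DD. ZT18 was the highest LD collection, and in DD ZT18 and ZT22 were level. In LD the ZT10 value lay above that of ZT14, and in DD all night values were above all day values. Tcf15 and hes6 encode basic helix-loop-helix factors, and znf740b a zinc finger protein. Tcf15 and znf740b were dim, with mean signals of 33.2 and 32.2, so the added 15 shrinks their log2 changes more than those of brighter members.

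The metabolic members were tpi1a (triosephosphate isomerase of glycolysis), ldhbb (lactate dehydrogenase), ppp1r3c2b (a subunit that targets protein phosphatase 1 to glycogen), guk1b (guanylate kinase), chka (choline kinase), fdx1 (a mitochondrial ferredoxin) and ppa1a (inorganic pyrophosphatase). Their sizes were 0.92 to 1.27. The peaks lay from ZT17.3 to ZT18.0 for tpi1a, ldhbb, ppp1r3c2b and guk1b, at ZT19.7 for chka, and at ZT21.3 and ZT21.6 for fdx1 and ppa1a. Without the DD array of ZT10 the earliest was tpi1a, at ZT16.6. The peak fitted in DD then moved from ZT17.6 to ZT14.1 for tpi1a and from ZT17.2 to ZT14.3 for ldhbb. It moved less for ppp1r3c2b and guk1b. Tpi1a had 1840 to 2035 at night and 682.5 to 1195 by day in LD, against 1716 to 2859 at night and 1005 to 1943 by day in DD. Night and day did not overlap in LD, and in DD they did. Ldhbb had 286.7 to 357.3 at night and 144.9 to 209.3 by day in LD, against 192.6 to 271.8 at night and 136.8 to 190.5 by day in DD, so night lay above day in both.

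Ppp1r3c2b had 270.5 to 314.5 at night and 79.3 to 122.0 by day in LD, against 251.3 to 283.5 at night and 176.7 to 214.5 by day in DD. Its night levels in the 2 conditions overlapped, and its day levels did not. The fitted size was 1.84 in LD and 0.56 in DD, the smallest DD size among members. For fdx1 and ppa1a the DD array of ZT10 was far below the other DD arrays. Fdx1 had 954.9 on it, against 1997 to 2783 on the other DD arrays, and ppa1a had 66.8, against 179.6 to 266.5. Without that array the size was 0.83 for fdx1 and 0.87 for ppa1a, against 1.07 and 1.21 with it.

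The transporters and receptors were aqp9b, slc43a2a, slc16a9b, abca7, grik1a and ttyh2l. Aqp9b, an aquaporin that also passes glycerol, had the largest size of the named members, 1.68 ± 0.21, at a low signal. Its signal was 7.5, 11.7, 1.3, 18.4, 34.2, 43.2 and 47.6 in LD, against 12.6, 25.9, 19.9, 25.4, 64.7, 70.0 and 40.0 in DD. Night exceeded day without overlap in both conditions. Its mean signal of 30.2 lay just above the limit of 30, and it no longer met the rule when any 1 of the 6 night arrays was left out. These same night values admitted it, so their order describes the choice. Detection calls were not used here, and the LD day values lie in a range where the array measures little.

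Slc43a2a encodes a transporter of large neutral amino acids. Its signal was 54.2, 56.9, 39.5, 127.8, 150.8, 193.4 and 194.9 in LD, against 136.1, 128.9, 200.8, 221.0, 251.3, 222.9 and 183.3 in DD. In DD it was already high at ZT6, and its fitted peak was ZT13.7 there, against ZT17.1 in LD. It no longer met the rule when any 1 of 7 arrays was left out, the most of any member. Slc16a9b, of the monocarboxylate transporter family, abca7, an ABC transporter of lipids, grik1a, a subunit of kainate glutamate receptors, and ttyh2l, of the tweety family of membrane proteins, had sizes of 0.98 to 1.20. Grik1a had 1021 to 1080 at night and 489.8 to 603.3 by day in LD, against 595.0 to 703.0 at night and 238.8 to 556.5 by day in DD, with no overlap in either.

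Among the other membrane proteins, nptna encodes neuroplastin, a cell adhesion molecule of the immunoglobulin family. Its signal was 315.0, 333.5, 281.5, 383.0, 615.3, 970.4 and 1102 in LD, against 500.8, 813.4, 300.8, 356.0, 485.6, 640.2 and 861.3 in DD. The 2 DD collections at ZT2 differed widely, and the higher of them was close to the ZT22 level. F11r.1, a junctional adhesion molecule, had 110.7, 56.2, 67.3, 131.3, 191.1, 277.3 and 92.6 in LD, against 197.6, 113.7, 125.4, 152.1, 328.7, 231.3 and 188.4 in DD. Its LD signal was back within the day range at ZT22. Plvapb, a protein of the fenestrae of blood vessel endothelium, had a size of 1.16 ± 0.22, whereas the other vessel gene tested, the endothelial receptor kdrl, had a size of 0.20. Of 8 listed vessel markers, 4 were on the array, and these 2 were above the signal limit. Their summed signal was 668.0 to 879.2 on night arrays and 508.9 to 783.2 on day arrays, and the part of vessel content in this result was not tested. In these bulk pools, fewer cells of a type and less RNA per cell cannot be told apart.

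The members tied to cell division and ubiquitin were cenpe, ube2h and 2 probe sets of pttg1ipa. Cenpe encodes a motor protein of the kinetochore. Its signal was 48.6, 58.7, 30, 36.4, 62.9, 102.2 and 127.1 in LD, against 55.1, 160.4, 54.1, 65.5, 65.8, 169.3 and 152.9 in DD. ZT18 and ZT22 were the 2 highest LD collections, and in DD the ZT2b pool reached their level. Ube2h, an enzyme that conjugates ubiquitin, peaked at ZT17.2. Pttg1ipa encodes a protein that binds securin in mammals. Its 2 probe sets come from the same design sequence and are not independent, and they had sizes of 0.89 and 0.92. No member gene had a further probe set above the signal limit. A further probe set of chka, znf740b, pttg1ipa and arrdc2 each had a mean signal of 7.86 to 18.3 and was not tested.

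Of the 5 genes with a systematic name, zgc:193593 had 1166, 1482, 2261, 3324, 6920, 5713 and 4811 in LD, against 2759, 4071, 3091, 2791, 5493, 5941 and 4861 in DD. Night lay above day in both conditions, with much lower values at ZT2 in LD. Si:ch211-152c2.3 had 6129, 7119, 4017, 3949, 6140, 8709 and 13017 in LD, against 6155, 8120, 4587, 3380, 4695, 6531 and 7788 in DD. It was lowest at ZT10 in both and its ZT22 pool in LD stood above all others. The gene zgc:158423 had 187.3, 172.0, 166.8, 271.0, 307.8, 476.8 and 400.6 in LD, against 225.8, 213.0, 179.4, 274.4, 411.8, 445.3 and 354.8 in DD. Its 2 time courses lay close together, and the wave explained 91.3% of the variance, the largest share of any member.

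**Figure D3:**
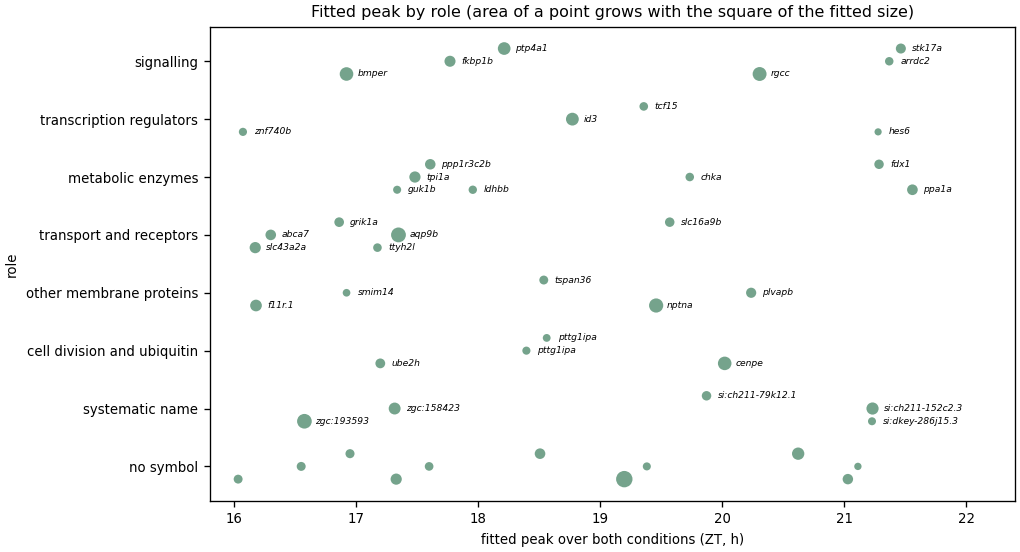
Fitted peak over both conditions (ZT, in h) of each member, by role, with the area of a point growing with the square of the size. The peaks of every role with several genes spread over 2 h or more, and the 11 members with no symbol span ZT16.0 to ZT21.1.

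How the waves compared between LD and DD was described from a fit with a wave for each condition. The size had a median of 1.36 in LD and 0.93 in DD over the 48 members, against medians of 0.44 and 0.43 over all probe sets tested. It was larger in LD for 34 of 48 members, where 53.3% of all probe sets had the larger size in LD. When the DD array of ZT10 was left out, 38 members had the larger size in LD, where 58.4% of all probe sets had the larger size in LD. The largest sizes in LD were 2.33 for zgc:193593, 2.10 for ptp4a1 and 2.04 for nptna. In DD the largest were 2.29 for the probe set with the largest size over both conditions, 1.95 for bmper and 1.79 for another probe set with no symbol.

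The peaks of the 2 conditions lay within 4 h of each other for all 48 members, which the limit on the common wave favours. The DD peak was the later one for 32 of 48, with a median lag of 0.92 h. Over all probe sets tested this lag was 0.84 h and 55.4% had the later peak in DD, so the lag of the members was close to that of all probe sets.

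**Figure D4:**
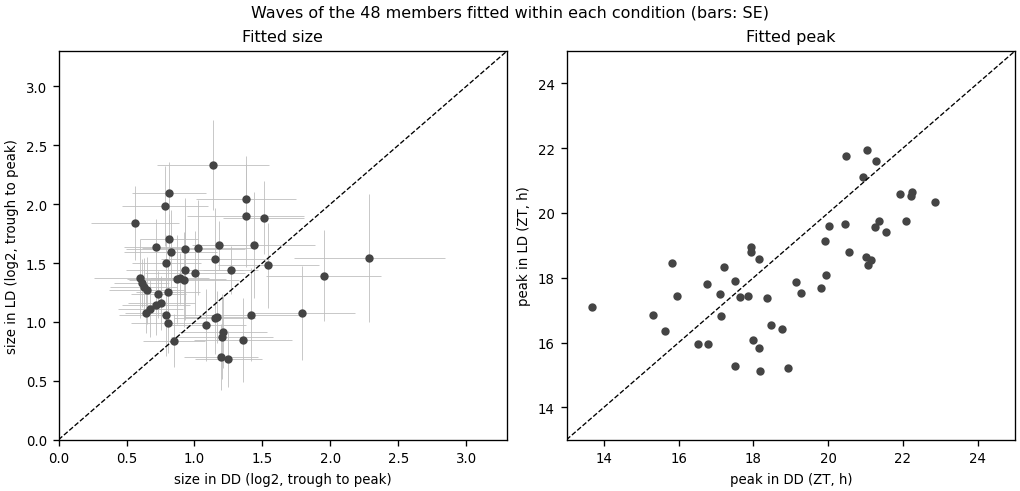
Size of the wave in LD against DD (left, log2, bars of 1 SE) and fitted peak in LD against DD (right, ZT in h), 1 point per member, with a broken line of equality. The median size is 1.36 in LD and 0.93 in DD, and 34 points of the left panel lie above the line. In the right panel 32 points have the later peak in DD.

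Whether these differences in the waves exceed the spread of the pools was tested in limma with a wave for each condition, with p-values adjusted over all 9195 probe sets. The difference in rhythm passed the threshold of 0.05 for 0 of 48 members, where 0.0% of all probe sets passed. At an unadjusted p under 0.05 there were 7 members and 659 of all probe sets. The smallest p of a member was that of ptp4a1, 0.00708, with an adjusted p of 0.57. It was followed by slc43a2a with 0.011 and zgc:193593 with 0.0116. The rule keeps probe sets whose 14 values lie near a common wave, which restricts how much a member could differ in rhythm. The larger sizes in LD describe these pools, and no member's difference passed the test.

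The mean level in LD against DD was asked next, in a fit that takes the 6 times as a block. This contrast was not used to choose the members, apart from the limit on mean signal, which aqp9b, tcf15 and znf740b met only through DD. The limit on share did restrict how far they scatter about the wave, and so how many could pass with or without the time block. Their share of calls is therefore not strictly comparable with that of all probe sets, here or in the day and night contrasts below. It passed the threshold for 16 of 48 members (33.3%), where 20.8% of all probe sets passed. Of these, 4 were higher in LD, where 10.1% of all probe sets were higher, and 12 were lower, where 10.7% were lower. The median difference over members was -0.18 (log2), against -0.01 over all probe sets. Without the time block the count was 5 of 48, where 18.1% of all probe sets passed. These 5 were hes6, smim14, si:ch211-79k12.1, the first pttg1ipa probe set and a probe set with no symbol, all lower in LD. The share of members called is thus above the background with the block and below it without. Without the block, the wave that the rule requires of members counts as scatter, so the count without it is not comparable with the count with it. Leaving out the DD array of ZT10 gave 19 calls, 6 higher and 13 lower, and leaving out the LD or the DD array of ZT6 gave 10. Over all probe sets these counts were 2110, 1433 and 1432, against 1911 with every array.

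The members higher in LD were bmper, ppa1a, fdx1 and a probe set with no symbol. Bmper had a lowest, median and highest signal of 587.1, 1244 and 1635 in LD, against 282.4, 455.4 and 1304 in DD. It was higher in LD at 7 of 7 collections, although the ranges overlap, and the difference was 0.92 ± 0.18 (log2, SE; adjusted p = 0.00482). Over the 7 collections in the order used above, ppa1a had 328.9, 389.1, 256.6, 177.7, 369.7, 410.6 and 416.2 in LD, against 251.4, 261.6, 179.6, 66.8, 197.5, 217.8 and 266.5 in DD. It was also higher in LD at 7 of 7 collections, by 0.71 ± 0.12 (adjusted p = 0.00258). Fdx1 had a lowest, median and highest signal of 2133, 2609 and 4758 in LD, against 954.9, 2296 and 2783 in DD, and rose by 0.52 ± 0.12 (adjusted p = 0.0106). The unnamed probe set differed by 0.44 ± 0.14.

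The members lower in LD held hes6, slc43a2a, si:ch211-79k12.1, smim14, tspan36, pttg1ipa, f11r.1, arrdc2, znf740b and 2 probe sets with no symbol. In the same order, hes6 had 141.1, 109.7, 96.7, 92.7, 108.9, 189.4 and 197.3 in LD, against 258.6, 254.2, 223.6, 156.2, 198.5, 237.4 and 269.7 in DD. It was lower in LD at all 7 collections, by a difference of -0.74 ± 0.13 (adjusted p = 0.00215). Slc43a2a, whose values are given above, was lower in LD at all but 1 collection, with a difference of -0.80 ± 0.20 (adjusted p = 0.0125). The ranges of both genes overlapped between conditions.

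Si:ch211-79k12.1 had 132.9, 128.6, 118.2, 91.4, 186.4, 193.1 and 163.8 in LD, against 399.8, 188.4, 211.2, 147.2, 255.5, 412.6 and 416.2 in DD. The difference was -0.87 ± 0.16 (adjusted p = 0.00334). A probe set with no symbol had 44.8, 46.9, 38.1, 54.8, 76.2, 126.1 and 69.2 in LD, against 132.0, 96.1, 93.8, 130.0, 154.4, 160.3 and 174.7 in DD. It had the largest difference of a member, -0.94 ± 0.13 (adjusted p = 0.000636). Smim14, a small membrane protein, had 69.9, 37.8, 49.5, 70.1, 109.0, 101.6 and 71.8 in LD, against 86.5, 115.5, 108.1, 83.6, 158.8, 167.7 and 138.1 in DD. The difference was -0.67 ± 0.14. All 3 were lower in LD at each of the 7 collections, although their ranges overlapped between conditions.

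Tspan36, a tetraspanin, had 259.0, 246.6, 142.0, 320.2, 334.1, 330.6 and 336.4 in LD, against 491.9, 297.2, 335.7, 249.0, 525.4, 633.7 and 574.5 in DD. It was lower in LD at all but 1 collection, with a difference of -0.61 ± 0.17. The first pttg1ipa probe set had 26.9, 37.1, 16.3, 23.8, 38.6, 60.3 and 43.3 in LD, against 68.8, 42.1, 40.5, 52.7, 63.0, 90.7 and 56.3 in DD. It was lower in LD at all 7 collections, with a difference of -0.58 ± 0.14. Arrdc2 had 218.6, 199.0, 160.4, 128.3, 159.9, 218.4 and 205.8 in LD, against 351.0, 268.3, 224.0, 131.9, 262.4, 395.7 and 347.4 in DD. It was lower in LD at all 7 collections, with a difference of -0.53 ± 0.12.

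A second probe set with no symbol had 253.7, 279.8, 213.3, 176.3, 210.0, 350.6 and 613.5 in LD, against 308.7, 678.6, 284.8, 361.0, 337.7, 544.9 and 579.7 in DD. It was lower in LD at all but 1 collection, ZT22, with a difference of -0.58 ± 0.17. The ranges of tspan36, pttg1ipa, arrdc2 and this probe set overlapped between conditions. F11r.1, with -0.57 ± 0.18, and znf740b, with -0.49 ± 0.15, also passed. The calls of tspan36, f11r.1, znf740b, the second pttg1ipa probe set, the last unnamed probe set and the unnamed one that was higher in LD were each lost when some single arrays were left out. The other 10 calls passed whichever array was left out. Leaving out either array of a time with 1 array per condition removes that time from the contrast, so these cases are not all separate checks.

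**Figure D5:**
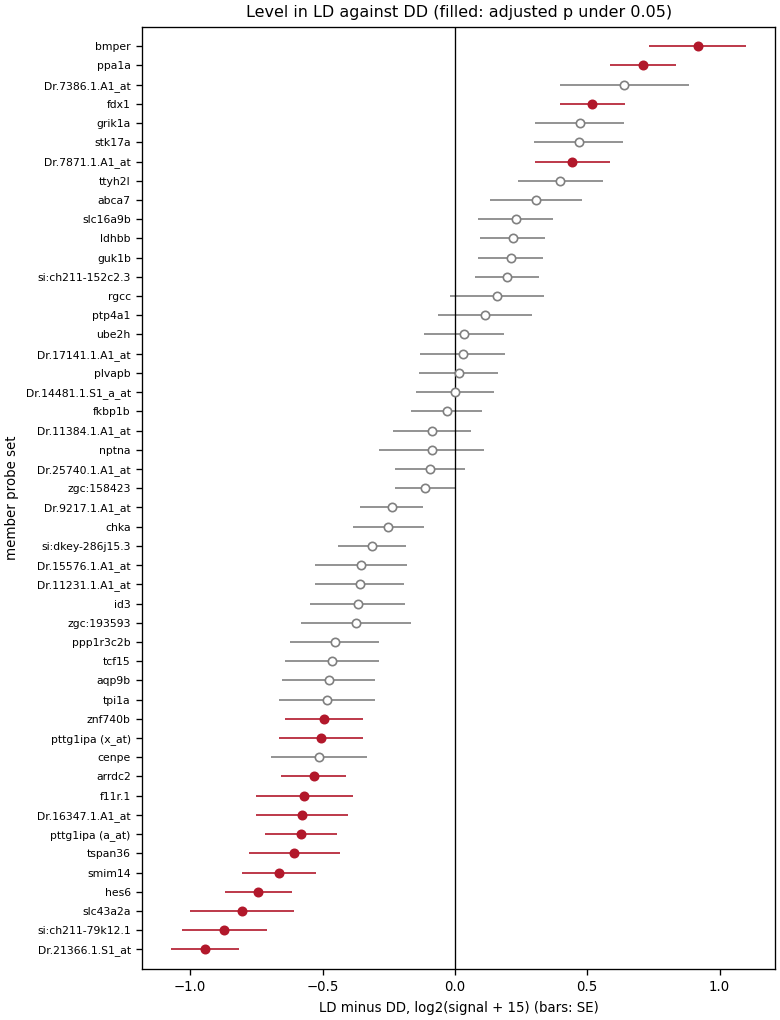
Difference in level between LD and DD (log2, LD minus DD, bars of 1 SE) for each member, ordered by its value, with filled points for an adjusted p under 0.05. The filled points are 4 on the right of 0, led by bmper at 0.92, and 12 on the left, down to -0.94 for a probe set with no symbol, shown by its array ID.

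Markers of other tissues were compared in the same fit, where 10.1% of all probe sets were higher in LD and 10.7% lower. Of 7 blood genes tested, 5 were lower in LD and none was higher, with a summed signal over the arrays of 7250 to 12356 in LD and 9346 to 18492 in DD. Among the blood genes, hbba2, a haemoglobin gene, had the largest difference, -3.25 ± 0.26. Another haemoglobin gene, hbaa1, had -0.55 ± 0.15. Epb41b (-0.19 ± 0.17) and gata1a (-0.51 ± 0.20) did not pass. Of 9 leukocyte genes tested, 3 were lower in LD, with sums of 2974 to 5218 in LD and 3635 to 8621 in DD. Of 2 habenula genes tested, kctd12.1 was lower in LD, with a difference of -1.36 ± 0.14. The other, kctd12.2, did not pass (-0.21 ± 0.22). The summed signal of the 2 was 153.2 to 237.4 in LD and 284.3 to 546.2 in DD. Of 12 pineal photoreceptor genes tested, 5 were higher in LD and 1 was lower. Of 7 glial genes tested 1 was higher and 3 were lower, of 5 neuronal genes 2 were higher, and of 9 genes of connective tissue and meninges 2 were higher and 1 was lower. Of the 2 myelin genes 1 was lower, and none of 5 skin, 2 muscle, 2 vessel and 1 pigment cell genes passed. No member is on the blood, leukocyte or habenula list, and the part of these tissues in the members' differences was not tested.

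By day, when lights were on in LD and off in DD, 9 of 48 members passed (18.8%), where 9.41% of all probe sets passed. Bmper and ppa1a were higher in LD, by 1.16 ± 0.23 and 0.66 ± 0.17. Slc43a2a, hes6, ppp1r3c2b, si:ch211-79k12.1, smim14, the first pttg1ipa probe set and the unnamed one with the difference of -0.94 were lower. Slc43a2a had 39.5 to 127.8 on the LD day arrays, against 128.9 to 221.0 on the DD day arrays, without overlap, and differed by -1.21 ± 0.20. Ppp1r3c2b, whose day values are given above, differed by -0.86 ± 0.15. Hes6 differed by -0.92 ± 0.15. The day calls of ppa1a, smim14, si:ch211-79k12.1 and the first pttg1ipa probe set were each lost when some single arrays were left out. For ppa1a there were 9 such arrays, the LD and the DD array of ZT10 among them. Its day call was also lost without the time block. Over all 48 members, 36 day differences were below 0 and the median was -0.28, against -0.01 over all probe sets. With both ZT2b arrays left out, 2 members passed by day, and 83 of all probe sets. Without the LD array of ZT2b, or an array of ZT6 or ZT18 from either condition, 5 members passed. Over all probe sets 357 to 600 passed in these cases, against 865 with every array.

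At night, when both conditions were dark, 2 of 48 members passed (4.17%), where 2.97% of all probe sets passed. These were arrdc2, with 159.9 to 218.4 on the LD night arrays against 262.4 to 395.7 on the DD night arrays, and that unnamed probe set, with 69.2 to 126.1 in LD against 154.4 to 174.7 in DD. Neither pair of ranges overlapped. The differences were -0.73 ± 0.18 and -0.79 ± 0.19, with adjusted p of 0.0493 and 0.0496, close to the threshold. Both calls were lost under many alternatives, among them a pseudocount of 5 and quantile normalisation. Without the DD array of ZT10, 6 members passed at night, 3 higher and 3 lower, and the same counts came without the LD array of that time. Over all probe sets 599 passed in each case, against 273 with every array. Without the DD array of ZT2, 3 members and 285 of all probe sets passed, and without any other single array no member did. The median night difference over members was -0.03.

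The day difference was below the night difference for 38 of 48 members, with a median of -0.29 against 0.03 over all probe sets. The test of this difference called 0 of 48 members, where 0.0% of all probe sets were called. At an unadjusted p under 0.05 there were 11 members and 524 of all probe sets. The smallest p, 0.00138 for ppp1r3c2b, had an adjusted value of 0.40. The limits that chose the members restrict this difference as well. That more members passed by day than at night does not show that their response to light differed between day and night.

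Genes of known signalling routes were examined beside the members. In the mammalian pineal gland, cyclic AMP acting through CREB, together with calcium, drives night transcription. No member is on either list. Of 47 listed cAMP and CREB genes, 21 were on the array and 17 were tested, so much of the route was not measured. Of the 17 tested, 0 met the limits on size and share at any peak time. On size alone, sik1 (1.77, peak ZT18.8) and cremb (0.99, ZT19.4) exceeded 0.8 with a night peak, at shares of 42.8% and 22.1%. Fosab (0.82, ZT4.5) and junbb (0.98, ZT6.7) exceeded it with a day peak, at shares of 15.1% and 27.5%. In LD against DD, 1 of the 17 was higher, the kinase inhibitor gene pkib. It had 2157 to 3564 in LD against 1085 to 2140 in DD, with a difference of 0.82 ± 0.09. It was joined by 4 that were lower: cremb, pde4ba, sik1 and nr4a1, with differences of -1.09, -0.96, -1.67 and -0.52. Sik1, a kinase that restrains CREB coactivators, had 326.1 to 3296 in LD against 2768 to 4387 in DD.

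Of 30 listed calcium signalling genes, 8 were on the array and 6 were tested. Of these 6, calm3a, a calmodulin, met the limits on size and share, with its peak outside the night window. Calm3a and atp2b1a, a calcium pump of the plasma membrane, were higher in LD, by 0.86 ± 0.15 and 1.15 ± 0.24. Of 4 melatonin genes tested, ddc was lower in LD (-0.51 ± 0.14), and aanat2 did not pass (0.58 ± 0.29, adjusted p = 0.17). Aanat2 had 3193, 3587, 7072, 3781, 12350, 11301 and 12482 in LD over the 7 collections, against 2906, 7488, 2179, 1017, 6588, 9780 and 10143 in DD. Its peak over both conditions, ZT19.1, lies in the middle of the members' range, and its DD value at ZT2b, like those of nptna, rgcc and cenpe, was well above that at ZT2.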

How the data were processed

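RNA of 14 pools of 12 glands was hybridised to Affymetrix zebrafish arrays after amplification by 2 rounds of in vitro transcription, per the labels' protocols. The deposited values are intensities, MAS5 signals on a linear scale. The submitters' processing notes name GCOS and MAS5, with versions not given in the sources used here. A mean signal, trimmed at both ends, was 150.04 to 150.05 on every array, so the authors had scaled the arrays. The table held 15617 probe sets. Of these, 115 controls and 1 with an empty cell were left out. Columns of other samples numbered 0. Symbols came from the platform annotation and were checked by Entrez gene ID where possible (10711 probe sets), which changed 1. A probe set with no symbol or several was not named. No build was named, so no coordinates are given. Array number, not read depth, limits the precision.

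The members, their roles and the gene lists were chosen with earlier results of these data known. Signals were taken as log2(signal + 15) with no further normalisation. A fold change on this scale understates changes at low signal. Those 9195 probe sets whose mean signal exceeded 30 were tested in limma 3.58.1 (R 4.3.3; lmFit and eBayes with a trend), with Benjamini-Hochberg adjustment over all of them and a threshold of 0.05. LD against DD was fitted with the 6 times of collection as a block, because the labels give both conditions the same times. Deviations from the condition means of same-time arrays correlated at -0.02 to 0.32 across probe sets. The day, night and day-minus-night contrasts came from a fit with the same block, and the rhythm difference from a fit with a wave in each condition. The fit of LD against DD was tested on simulated data, and the other fits were not. Named members follow a fixed rule: values on every array for the 12 largest named sizes and for the 12 largest called differences between LD and DD, and others by role. Alternatives were the pseudocount, the signal filter, the normalisation, the block, the prior, ZT2b and each array left out. Figures used matplotlib 3.10.9 under Python 3.11.15 with pandas 2.3.3 and numpy 2.4.6.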

Additional observations from a re-analysis of the deposited data

Results flagged for a closer look

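In each condition the 7 arrays of each member were searched for an array whose gap to its nearest neighbour exceeded Dixon's 95% value, 0.568 of the whole range. That value is exceeded in about 1 in 20 series drawn independently from a single normal distribution. Members were chosen to follow a wave, so this rate does not apply to their series. Of the 96 member series, 4 exceeded the value. They were ppa1a and fdx1 in DD, both lowest at ZT10 with a gap of 0.701 and 0.689 of the range, grik1a in DD, lowest at ZT2 (0.591), and tspan36 in LD, lowest at ZT6 (0.634). The same search over 10 series of array measures found 3, all for the DD array of ZT10. These were the highest poly-A control signal (0.927), the highest hybridisation control signal (0.602) and the lowest mean correlation with its condition (0.923).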

How the results depend on the processing

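Across all alternatives run on the members named in a call, 478 of 644 values kept direction and side of the threshold, 166 kept the direction only and 0 reversed. These values are not separate checks. The alternatives share most arrays, some members enter by more than 1 contrast, and leaving out the LD or the DD array of a time can give the same difference. Without the time as a replicate block, in which case the members' wave counts as scatter, 5 members passed in LD against DD. With a replicate block of 7 collections, 0 members and 132 of all probe sets passed at night. At night 0 members passed also with a pseudocount of 5, no signal filter, median centring, quantile normalisation, both ZT2b arrays left out and no block. Without the filter 575 probe sets passed by day and 138 at night. Without both ZT2b arrays 944 passed in LD against DD, 83 by day (2 members) and 15 at night. With 1 probe set per gene 1265 passed in LD against DD and 2 in the rhythm difference, where a robust prior also gave 2. Leaving out each array in turn gave 10 to 19 members and 1375 to 2110 probe sets in LD against DD, 5 to 10 and 326 to 833 by day, 0 to 6 and 0 to 599 at night, 0 to 1 probe sets in the day-minus-night and in the rhythm difference, and 46 to 88 that met the rule, the highest without the DD array of ZT6. The causes of these changes were not tested. Median centring gave 1089 higher and 843 lower calls in LD against DD over all probe sets, against 931 and 980 as reported.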

Other observations

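The arrays carry a control probe set for the fluorescent protein of the transgene, which no comparison above uses. In the order ZT2, ZT2b, ZT6, ZT10, ZT14, ZT18 and ZT22, its signal was 36.5, 13.1, 22.3, 39.9, 43.9, 31.8 and 67.1 in LD, against 13.8, 23.9, 42.8, 15, 47.9, 48 and 62.8 in DD.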
